A study of Mus musculus with 50 samples.

Results

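The genes described here are 10 targets of the transcription factor p53: Mdm2, Cdkn1a, Btg2, Ccng1, Plk2, Trp53inp1, Bbc3, Phlda3, Sesn2 and Zmat3. They were taken by name from 2 tables of gene expression in mouse embryonic stem cells, and were chosen with earlier results of these data known. Counts of members beside the share over all genes therefore describe this list and do not test it. All 10 were in both tables and all 10 passed the filter on low values, so they were 10 of the 13862 genes tested in the first table and 10 of the 13819 tested in the second. Libraries without the histone methyltransferase Setdb1 were compared with matched libraries that kept it in 8 comparisons. The median log2 fold change over these was 1.44 for Plk2, 1.38 for Trp53inp1, 1.25 for Btg2 and 1.14 for Cdkn1a. It was smallest for Zmat3 at 0.26, and Zmat3 passed the test in none of them.

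The cells were of the TT2 line, and the 50 libraries formed 25 groups of 2. They lacked combinations of enzymes that methylate histone H3 at lysine 9: G9a (gene Ehmt2), Setdb1, and the pair Suv39h1 and Suv39h2 (written Suv39h1/2). The first table held 18 libraries in 9 groups. One, Dux-KO:G9a;Suv39h1/2;Setdb1-QKO, lacked all 4 methyltransferases and Dux, the transcription factor that switches on genes of the 2-cell embryo, and is written Dux-KO QKO below. The others were G9a;Suv39h1/2;Setdb1-QKO (written QKO), G9a;Setdb1-DKO, Suv39h1/2;Setdb1-TKO, Setdb1-KO, G9a;Suv39h1/2-TKO, G9a-KO, Suv39h1/2-DKO and control. The second table held 32 libraries in 16 groups. All of them, the control included, lacked Dux and carried a Tet-on-Dux transgene, a copy of Dux that doxycycline induces. The same 8 combinations of methyltransferase loss were present with doxycycline and at dox0. The dox label was 0.2 in control and Setdb1-KO cells and 1 in the other 6 combinations, and the sources used here do not give its unit.

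Titles gave one cell line name to each pair of groups with and without Setdb1 (33-6, SE, SG and 3S1G in the first table), so that Setdb1 loss was compared within a line. Every group without Setdb1 also had the label OHT and every group with it NT. The sources used here do not give the meaning of OHT, and its part cannot be told apart from Setdb1 loss. Loss of G9a or Suv39h1/2, and the line 3S1Gx of Dux-KO QKO, were compared between lines, where gene and line cannot be told apart. The labels do not say that the 2 libraries of a group came from separate cultures. The p-values measure the spread between these libraries.

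p53 is a transcription factor that is held at a low level by the ubiquitin ligase Mdm2 and accumulates when DNA is damaged or the cell is stressed. It then raises the transcription of genes that halt the cell cycle, promote cell death, repair DNA or restrain growth, and of Mdm2 itself, which closes a feedback loop. Mouse embryonic stem cells hold abundant p53, and Dux has been described as one of its targets in these cells. p53 binds DNA as a tetramer at a pair of 10-base half-sites separated by a short spacer.

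The upstream sequences of 4 members are shown because they differ in the p53 half-sites that a search found. RefSeq promoters of GRCm38.p6 were available for 8 of the 10 members, with 11 start sites in all, and not for Trp53inp1 and Zmat3. The 250 bases before each start were searched on both strands for the p53 half-site consensus, and a full site was a pair of half-sites with 0 to 13 bases between them. Capitals mark half-sites. Sequences run 5′ to 3′ on the strand of the gene.
Cdkn1a: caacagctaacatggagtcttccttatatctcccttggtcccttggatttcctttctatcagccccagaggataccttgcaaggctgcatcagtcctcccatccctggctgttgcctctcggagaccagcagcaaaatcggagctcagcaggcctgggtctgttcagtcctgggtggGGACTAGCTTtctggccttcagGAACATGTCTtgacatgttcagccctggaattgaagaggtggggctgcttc
Mdm2: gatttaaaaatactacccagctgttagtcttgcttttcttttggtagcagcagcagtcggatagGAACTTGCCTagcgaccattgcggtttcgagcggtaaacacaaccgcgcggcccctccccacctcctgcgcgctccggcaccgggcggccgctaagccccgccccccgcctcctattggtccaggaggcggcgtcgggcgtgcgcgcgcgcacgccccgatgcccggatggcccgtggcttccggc
Ccng1: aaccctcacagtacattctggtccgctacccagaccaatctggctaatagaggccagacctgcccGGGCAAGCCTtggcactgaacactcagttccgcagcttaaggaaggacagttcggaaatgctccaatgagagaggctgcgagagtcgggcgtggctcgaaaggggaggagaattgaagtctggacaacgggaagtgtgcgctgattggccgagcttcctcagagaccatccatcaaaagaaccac
Btg2: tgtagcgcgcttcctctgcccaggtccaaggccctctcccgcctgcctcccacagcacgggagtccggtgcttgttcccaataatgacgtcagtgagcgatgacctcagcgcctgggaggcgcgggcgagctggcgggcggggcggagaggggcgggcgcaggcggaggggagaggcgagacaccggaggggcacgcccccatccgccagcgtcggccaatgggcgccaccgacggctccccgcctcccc
The Cdkn1a window shown lay at chr17:29090729-29090978 on the plus strand. It held a full site, its half-sites 12 bases apart, between 73 and 42 bases before that start. The window of another Cdkn1a start, at chr17:29093519-29093768 on the same strand, held no half-site. The Mdm2 window at chr10:117710759-117711008 on the minus strand held a single half-site, 186 to 177 bases before the start. The Ccng1 window at chr11:40755287-40755536 on the minus strand also held a single one, 185 to 176 bases before the start. The Btg2 window at chr1:134079156-134079405 on the minus strand held none, and neither did the windows of Plk2, Phlda3, Bbc3 and Sesn2. A half-site was thus found for 3 of 8 members, against 7.41% of the 17223 genes with a window and a row in both tables, and a full site for 1 of 8 members, against 0.0464% of those genes. Such a match is a description of these letters, and the window leaves out introns and distant elements, where p53 sites of several of these genes are known to lie.

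The members lay on 8 chromosomes (GENCODE M21 coordinates of GRCm38). Mdm2 spanned chr10:117688875-117710758 on the minus strand, Cdkn1a chr17:29090976-29100727 on the plus strand, Btg2 chr1:134075170-134079120 on the minus strand, Ccng1 chr11:40748552-40755311 on the minus strand and Plk2 chr13:110395046-110400844 on the plus strand. Trp53inp1 spanned chr4:11156431-11174379 on the plus strand, Bbc3 chr7:16308393-16318205 on the plus strand, Phlda3 chr1:135766119-135769136 on the plus strand, Sesn2 chr4:132492032-132510501 on the minus strand and Zmat3 chr3:32334792-32366014 on the minus strand. Btg2 and Phlda3 shared a chromosome, as did Trp53inp1 and Sesn2. Cdkn1a shares 273 exon bases with AC167363.2 on the opposite strand. The library kit kept strand, but whether counting used it is not given, so the Cdkn1a values may hold reads of that gene.

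Values were TPM, an abundance of transcripts scaled by their length and by the library total that the authors computed, so levels of different genes can be set side by side. TPM do not hold the read depth, which is unknown. Libraries of the first table had 11855 to 13274 genes at 1 TPM or more, and those of the second 11742 to 12690. In the first table Setdb1 averaged 22.9 to 35.1 TPM in the groups labelled as lacking it, against 43.8 to 51.0 TPM in groups that kept it, and Ehmt2 averaged 7.42 to 26.5 TPM without G9a against 87.3 to 99.7 TPM with it. Suv39h1 averaged 11.3 to 22.6 TPM and Suv39h2 12.7 to 16.1 TPM in groups labelled as lacking them, against 23.1 to 32.8 TPM and 16.7 to 24.2 TPM in groups that kept them, and for both genes single libraries of these groups overlapped. The sources used here do not say which part of each gene was deleted, so these levels check the labels only in part. Dux was listed at 0 in Dux-KO QKO and averaged 23.8 TPM in QKO and 1.06 TPM in control cells. All 24 pluripotency genes listed passed the filter, and their summed level was 8241 to 16890 TPM in the libraries of the first table. In bulk RNA, fewer cells of a type and less RNA per cell cannot be told apart. Among the 32 libraries of the second table, 6 stood apart by a high level of small nucleolar RNA host genes (Snhg genes), with a mean of 4.36 to 4.85 on the log2(TPM+1) scale against 2.44 to 3.45 in the other 26. They were control dox0 replicate 1, Setdb1-KO dox0 and doxycycline replicate 2, G9a-KO doxycycline replicate 2, and both replicates 2 of G9a;Setdb1-DKO. Fits of the second table were also made without them, which left 1 library in each group that held one. All 18 libraries of the first table had means of 4.50 to 5.15, so in this the 6 were like the first table.

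A gene was called when its adjusted p was under 0.05 and its log2 fold change reached 1 in either direction (limma, on the log2(TPM+1) scale, which understates changes of low genes). In Setdb1-KO against control cells 5 of 10 members were called higher, against a background of 4.12% of all genes called higher, and 0 were lower (0 at an unadjusted p below 0.05), against a background of 2.16%. Their median log2 fold change was 0.93, against -0.12 over all genes tested. Of all genes called there 65.6% were higher, and 80.0% were with median ratio scaling of the libraries, which put the all-gene median at 0.03. At adjusted p alone 8 of 10 were higher, as were 12.5% of all genes. The library ranges did not overlap for 9 of 10 members, all higher, as for 24.7% of all genes.

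Among the genes of cell cycle arrest, Cdkn1a encodes p21, the inhibitor of cyclin-dependent kinases through which p53 halts the cycle. Cdkn1a had 90.3 and 97.8 TPM in Setdb1-KO cells, against 44.3 and 39.6 TPM in control cells (log2 fold change 1.15, SE 0.12, adjusted p = 4.78e-06). With Suv39h1/2 also missing it had 117 and 95.8 TPM in Suv39h1/2;Setdb1-TKO cells, against 60.2 and 50.4 TPM in Suv39h1/2-DKO cells, a log2 fold change of 0.93 that was below the fold limit. Both sets of libraries without Setdb1 lay above all 4 libraries with it. Without G9a the values were 156 and 168 TPM in G9a;Setdb1-DKO cells, against 52.2 and 47.4 TPM in G9a-KO cells (log2 fold change 1.69, SE 0.12, adjusted p = 9.3e-08). They were 178 and 162 TPM in QKO cells, against 60.8 and 55.8 TPM in G9a;Suv39h1/2-TKO cells (log2 fold change 1.53, SE 0.12, adjusted p = 1.41e-07). The 4 libraries that lacked both G9a and Setdb1 were higher than every other library with Dux.

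Btg2 encodes an antiproliferative protein that recruits the CCR4-NOT complex, which shortens the tails of messenger RNAs. Btg2 had 32.8 and 37.1 TPM in Setdb1-KO cells, against 12.5 and 12.6 TPM in control cells (log2 fold change 1.41, SE 0.11, adjusted p = 2.65e-07). It had 79.98 and 75.6 TPM in QKO cells, against 21.99 and 22.6 TPM in G9a;Suv39h1/2-TKO cells (log2 fold change 1.76, SE 0.11, adjusted p = 1.59e-08). Its replicates were the closest of the members in the first table, with a median coefficient of variation of 3.9%, and all libraries without Setdb1 lay above all with it. In the intermediate backgrounds Btg2 had 50.2 and 44.97 TPM in Suv39h1/2;Setdb1-TKO cells against 19.1 and 19.98 TPM in Suv39h1/2-DKO cells, a log2 fold change of 1.24. It had 47.2 and 58.2 TPM in G9a;Setdb1-DKO cells against 17.1 and 16.2 TPM in G9a-KO cells, a log2 fold change of 1.6. Both were called.

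Plk2 encodes a polo-like kinase that acts in centriole duplication and was called higher with Setdb1 loss in every background. It had 49.2 and 62.2 TPM in Setdb1-KO cells, against 18.3 and 20.7 TPM in control cells (log2 fold change 1.46, SE 0.14, adjusted p = 2.5e-06). It had 63.7 and 58.9 TPM in Suv39h1/2;Setdb1-TKO cells, against 21.1 and 23.4 TPM in Suv39h1/2-DKO cells (log2 fold change 1.42). The groups were far apart in both pairs. Plk2 had 87.5 and 116 TPM in G9a;Setdb1-DKO cells, against 26.2 and 30.9 TPM in G9a-KO cells (log2 fold change 1.79). It had 106 and 112 TPM in QKO cells, against 35.2 and 37.2 TPM in G9a;Suv39h1/2-TKO cells (log2 fold change 1.57). No library without Setdb1 overlapped with one that kept it.

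Ccng1 encodes cyclin G1, which recruits a phosphatase to Mdm2. It had 187 and 244 TPM in Setdb1-KO cells, against 95.9 and 116 TPM in control cells (log2 fold change 1.01, SE 0.17, adjusted p = 0.000519), a call close to the fold limit. It had 326 and 399 TPM in QKO cells, against 127 and 171 TPM in G9a;Suv39h1/2-TKO cells (log2 fold change 1.29, SE 0.17, adjusted p = 4.08e-05). By mean TPM Ccng1 was the highest of the 10 members in 24 of the 25 groups, and Mdm2 was among the 2 highest in 20.

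Mdm2, the feedback inhibitor, had high levels and smaller fold changes. It had 182 and 206 TPM in Setdb1-KO cells, against 101 and 114 TPM in control cells (log2 fold change 0.84, SE 0.11, adjusted p = 4.47e-05), and 219.5 and 221 TPM in QKO cells, against 122 and 139 TPM in G9a;Suv39h1/2-TKO cells (log2 fold change 0.75). Its groups did not overlap in any of the 4 pairs, and its log2 fold changes of 0.75 to 0.84 all had an adjusted p below 0.05 and stayed below the fold limit.

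Of the genes of cell death, Trp53inp1 encodes a nuclear stress protein that acts with p53 in cell death and in autophagy. It had 86.9 and 138 TPM in Setdb1-KO cells, against 33.9 and 43.6 TPM in control cells (log2 fold change 1.49, SE 0.27, adjusted p = 0.000746). It had 121 and 139.9 TPM in Suv39h1/2;Setdb1-TKO cells against 42.99 and 55.1 TPM in Suv39h1/2-DKO cells (log2 fold change 1.4). The replicates of Trp53inp1 were further apart than those of Btg2 or Plk2, with a median coefficient of variation of 17.7%, and the groups still did not overlap. It had 185 and 315 TPM in G9a;Setdb1-DKO cells against 64.7 and 84.1 TPM in G9a-KO cells (log2 fold change 1.7). It had 260.0 and 333 TPM in QKO cells against 58.6 and 87.9 TPM in G9a;Suv39h1/2-TKO cells (log2 fold change 2.02). The last of these was the largest change of any member with Setdb1 loss in either table.

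Bbc3 encodes PUMA, a BH3-only protein that triggers mitochondrial cell death, and Phlda3 encodes a pleckstrin-homology protein that restrains Akt. Bbc3 had 22.9 and 19.97 TPM in Setdb1-KO cells, against 16.1 and 13.3 TPM in control cells, a log2 fold change of 0.52 that was not called (adjusted p = 0.0817). Phlda3 had 81.7 and 61.5 TPM in Setdb1-KO cells, against 47.9 and 37.9 TPM in control cells, a log2 fold change of 0.72 with an adjusted p of 0.0158. Neither gene's libraries overlapped between those groups. In G9a;Setdb1-DKO cells Phlda3 was called higher, with 118 and 88.96 TPM against 47.7 and 35.8 TPM in G9a-KO cells (log2 fold change 1.29, SE 0.21, adjusted p = 0.000364). The replicates of Phlda3 were the furthest apart of the members in the first table, with a median coefficient of variation of 18.5%.

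Sesn2 encodes sestrin 2, which restrains the growth kinase complex mTORC1, and Zmat3 encodes a zinc-finger protein that binds RNA. Sesn2 had 79.97 and 104 TPM in Setdb1-KO cells, against 66.5 and 65.02 TPM in control cells (log2 fold change 0.47, SE 0.13, adjusted p = 0.0139), below the fold limit. Zmat3 had 24.9 and 38.1 TPM in Setdb1-KO cells, against 27.01 and 30.1 TPM in control cells, a log2 fold change of 0.11 (adjusted p = 0.705). It was the only member whose ranges overlapped in that comparison, and it was called with Setdb1 loss in no background.

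**Figure D1:**
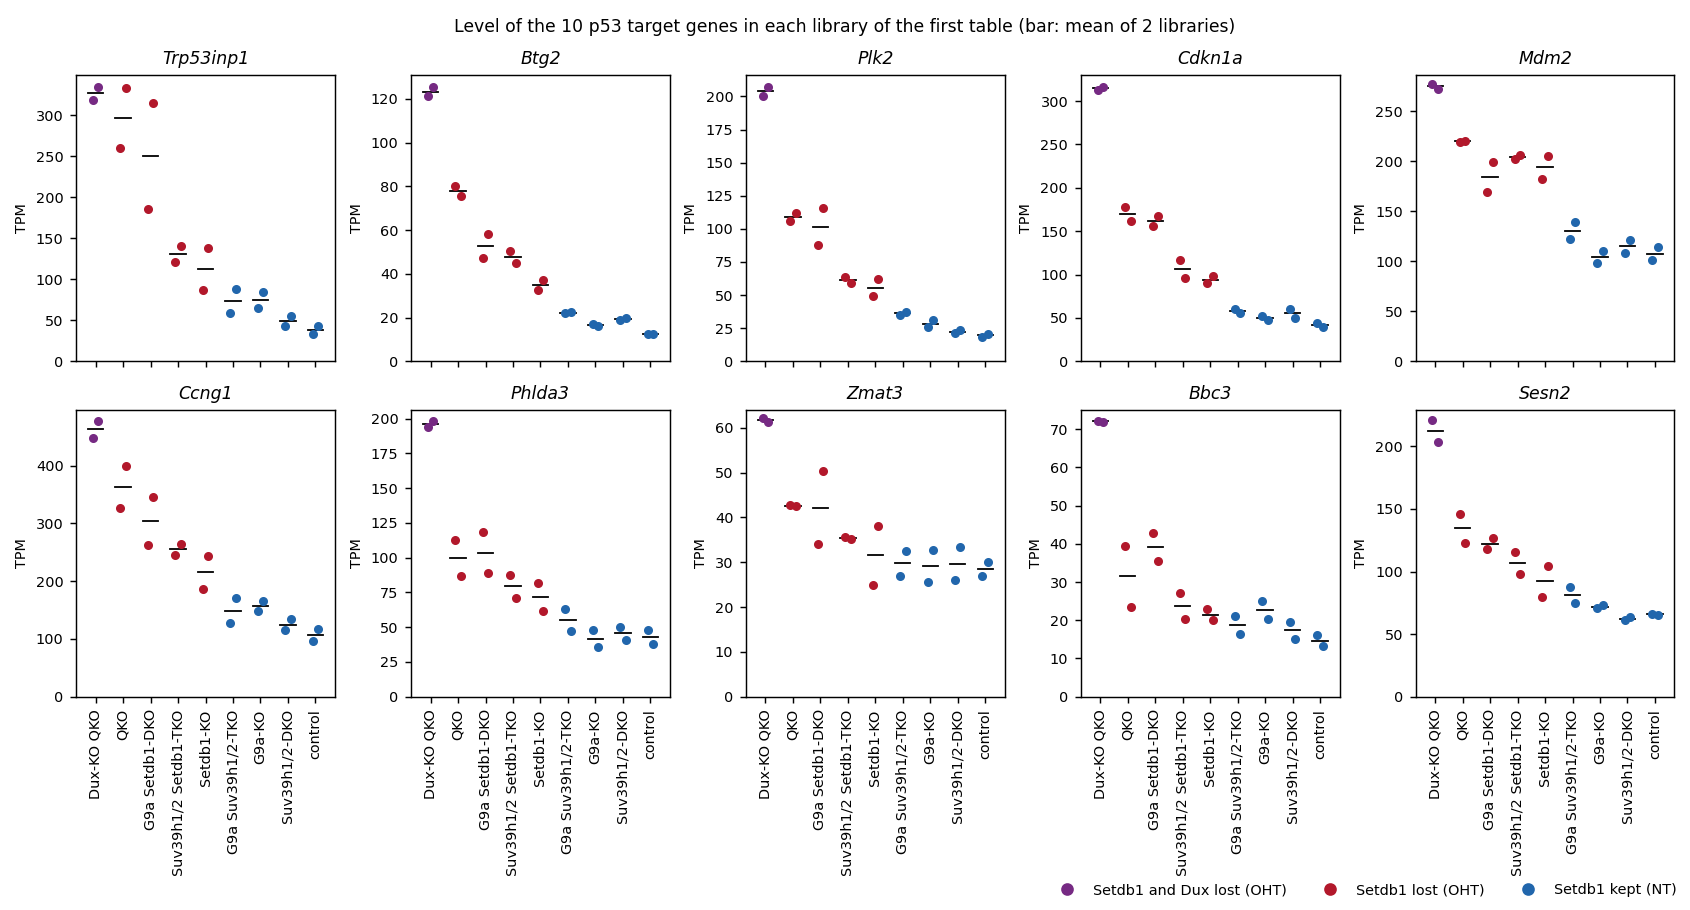
TPM of each of the 10 p53 target genes in the 18 libraries of the first table, one panel per gene, with Dux-KO QKO at the left and control at the right. Points are libraries (2 per group), bars are group means, and colours mark libraries without Dux and Setdb1, without Setdb1, and with Setdb1. Plk2, Btg2 and Cdkn1a lie higher in every library without Setdb1 than in every library that kept it, and the Zmat3 ranges of neighbouring groups mostly overlap.

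Over both tables, the second at dox0, Setdb1 loss was compared in 4 backgrounds per table, which gave 80 log2 fold changes for the 10 members. All 80 were positive, 32 were called higher, 60 passed at adjusted p alone and 76 had ranges that did not overlap. Per comparison 2.64% to 18.9% of all genes were higher at adjusted p alone and 18.2% to 30.9% were higher without overlap. The first table gave 19 of the 32 calls and the second 13. Plk2 was called in 8 of 8 comparisons (log2 fold changes 1.15 to 1.79), Trp53inp1 in 7 (0.78 to 2.02), Btg2 in 7 (0.97 to 1.76), Cdkn1a in 5 (0.50 to 1.69) and Ccng1 in 3 (0.61 to 1.29). Phlda3 was called in 1 (0.55 to 1.29) and Bbc3 in 1 (0.28 to 1.03). Mdm2 (0.62 to 0.91), Sesn2 (0.45 to 0.98) and Zmat3 (0.11 to 0.51) were called in 0 of 8. At adjusted p alone Mdm2 passed in 5 of the 8, Sesn2 in 6 and Zmat3 in 0. The background of genes called higher with Setdb1 loss was 4.65% on Suv39h1/2-DKO, 4.62% on G9a-KO and 6.45% on G9a;Suv39h1/2-TKO in the first table, where 4, 5 and 5 members were called.

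In the second table every cell lacked endogenous Dux, so the Setdb1 comparison at dox0 was made without that gene and without induction of the transgene. The transgene was still listed at group means of 0.786 to 3.62 TPM at dox0, so these cells were not free of Dux RNA. There the background was 1.67% of all genes for Setdb1-KO against control, with 3 members called. It was 1.18% on Suv39h1/2-DKO with 2 members, 3.74% on G9a-KO with 4, and 2.36% on G9a;Suv39h1/2-TKO with 4. Of the 25 genes of the 2-cell embryo that were tested, limma called 0 higher in that Setdb1-KO comparison (0 at an unadjusted p below 0.05) and 8 in G9a;Setdb1-DKO against G9a-KO.

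Plk2 had 48.98 and 68.1 TPM in Setdb1-KO dox0 cells, against 24.8 and 17.9 TPM in control dox0 cells (log2 fold change 1.41, SE 0.32, adjusted p = 0.00958). Trp53inp1 had 101 and 132 TPM in Setdb1-KO dox0 cells, against 57.6 and 55.9 TPM in control dox0 cells (log2 fold change 1.02, SE 0.21, adjusted p = 0.00532). Btg2 had 30.8 and 43.3 TPM in Setdb1-KO dox0 cells, against 17.4 and 12.3 TPM in control dox0 cells (log2 fold change 1.26, SE 0.30, adjusted p = 0.0141). All 3 were called and none of their ranges overlapped. Cdkn1a had 127 and 132 TPM in Setdb1-KO dox0 cells, against 82.6 and 68.9 TPM in control dox0 cells, a log2 fold change of 0.77. It had 217 and 221 TPM in G9a;Setdb1-DKO dox0 cells, against 83.7 and 97.2 TPM in G9a-KO dox0 cells (log2 fold change 1.27, SE 0.16, adjusted p = 2.32e-05). The largest of its values in the second table was that of the double knockout of G9a and Setdb1 at dox0.

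With G9a and Suv39h1/2 missing, Trp53inp1 had 143 and 178 TPM in QKO dox0 cells, against 69.9 and 80.2 TPM in G9a;Suv39h1/2-TKO dox0 cells (log2 fold change 1.08, SE 0.21, adjusted p = 0.00232). Plk2 had 95.3 and 109 TPM in QKO dox0 cells, against 37.4 and 38.8 TPM in G9a;Suv39h1/2-TKO dox0 cells (log2 fold change 1.4, SE 0.32, adjusted p = 0.00777). Btg2 had 65.03 and 61.5 TPM in QKO dox0 cells, against 29.99 and 25.6 TPM in G9a;Suv39h1/2-TKO dox0 cells (log2 fold change 1.16, SE 0.30, adjusted p = 0.0179). These 3 genes were again called without overlap. Bbc3, the gene for PUMA, was called in G9a;Setdb1-DKO dox0 cells, with 53.7 and 38.8 TPM against 21.8 and 21.8 TPM in G9a-KO dox0 cells (log2 fold change 1.03, SE 0.26, adjusted p = 0.0123). In QKO dox0 cells it had 24.98 and 21.8 TPM, against 17.5 and 20.8 TPM in G9a;Suv39h1/2-TKO dox0 cells, a log2 fold change of 0.28 that was not called. The second table thus placed the highest Bbc3 and Phlda3 levels in the double knockout of G9a and Setdb1, where Phlda3 had 161 and 104 TPM against 61.04 and 76.2 TPM in G9a-KO dox0 cells (log2 fold change 0.91, adjusted p = 0.00573).

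Mdm2, Ccng1 and Sesn2 had smaller changes in the second table. Mdm2 had 181 and 187 TPM in QKO dox0 cells, against 116 and 109 TPM in G9a;Suv39h1/2-TKO dox0 cells (log2 fold change 0.70, adjusted p = 0.107). Ccng1 had 287 and 287 TPM in QKO dox0 cells, against 146 and 159.8 TPM in G9a;Suv39h1/2-TKO dox0 cells (log2 fold change 0.90, adjusted p = 0.00252). Sesn2 had 98.6 and 94.3 TPM in QKO dox0 cells, against 62.1 and 68.9 TPM in G9a;Suv39h1/2-TKO dox0 cells (log2 fold change 0.55, adjusted p = 0.0837). All 3 stayed below the fold limit and none overlapped. Zmat3, the flattest member, had 35.7 and 40.4 TPM in QKO dox0 cells, against 26.1 and 40.8 TPM in G9a;Suv39h1/2-TKO dox0 cells, ranges that overlapped.

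Some of these comparisons held libraries of high Snhg level. In each group that held one, TPM summed over the members were higher in that library than in the other. At dox0 the sums were 1063 against 866 in Setdb1-KO, 1493 against 1227 in G9a;Setdb1-DKO and 589.5 against 533.5 in control cells. G9a-KO dox0 held none, so the comparison on G9a-KO had such a library only on the side without Setdb1. The part of the Snhg level in the calls was not tested. Without the 6 libraries of high Snhg level, Setdb1-KO dox0, control dox0 and G9a;Setdb1-DKO dox0 were left with 1 library each. Counts of calls are not given for those fits. The comparisons on Suv39h1/2-DKO and G9a;Suv39h1/2-TKO hold none of the 6 libraries and gave 2 and 4 calls. With all libraries, all 10 members were positive in each of the 4 Setdb1 comparisons at dox0. Removing single libraries moved the counts of all 4 comparisons. On G9a-KO the 4 calls ranged from 4 to 6. The call of 3 members in Setdb1-KO against control at dox0 fell to 0 without Setdb1-KO dox0 replicate 2 and to 0 without control dox0 replicate 2. On Suv39h1/2-DKO the 2 calls fell to 0 or 1 without any one of the 4 libraries. On G9a;Suv39h1/2-TKO the 4 calls fell to 1 without G9a;Suv39h1/2-TKO dox0 replicate 1 or QKO dox0 replicate 2, and to 2 without G9a;Suv39h1/2-TKO dox0 replicate 2.

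**Figure D2:**
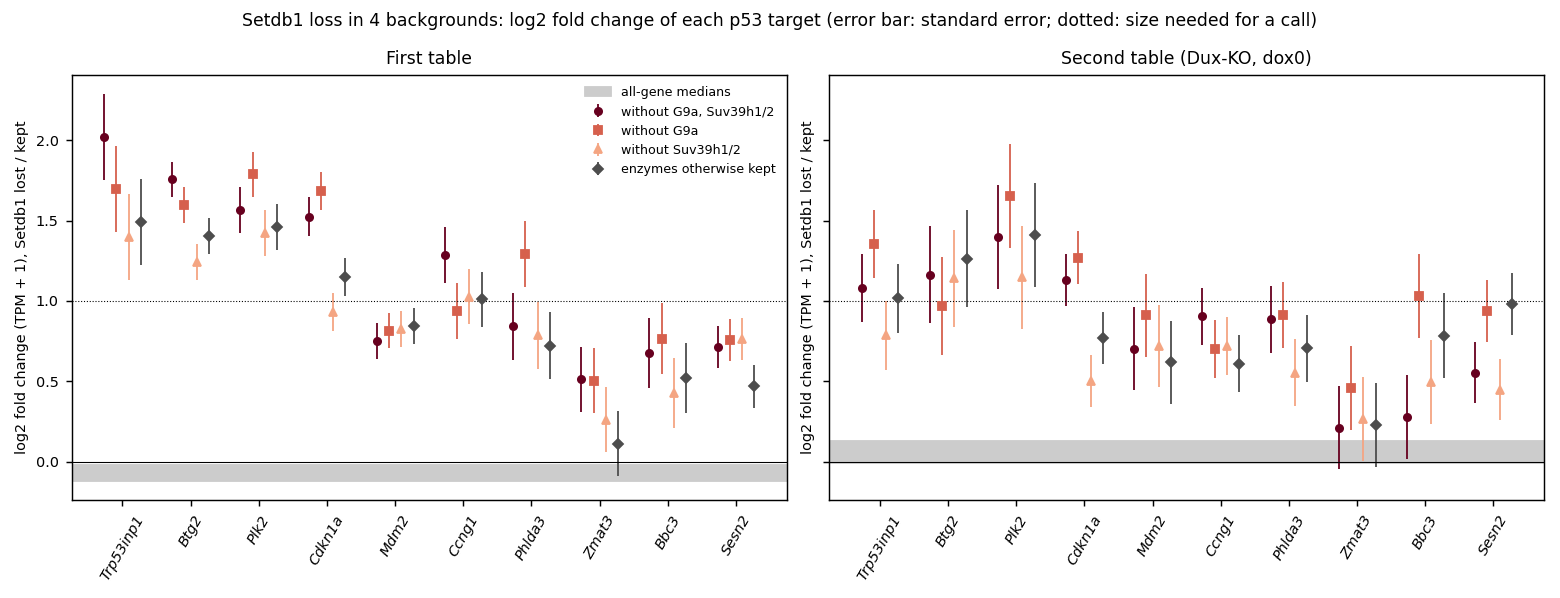
Log2 fold change of each p53 target gene with Setdb1 loss in 4 backgrounds of each table (second table at dox0), on the log2(TPM+1) scale. Points are estimates and bars standard errors of the limma model, the grey band spans the medians of all genes tested, and the dotted line marks the fold limit of 1. All 80 points lie above 0, with Plk2 above the limit in every comparison and Zmat3 below it in every comparison.

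In the first table markers of other states differed between the same libraries. The summed level of 26 genes of the 2-cell embryo was 1429 to 7396 TPM in the 8 libraries without Setdb1 and with Dux, against 157 to 840.1 TPM in the 8 libraries that kept Setdb1. The summed level of 16 trophoblast markers was 64.3 to 91.9 TPM without Setdb1, against 39.9 to 55.8 TPM with it. Tpbpa was listed at 0 in all of these libraries, and Elf5, Tfap2a and Prl3d1 stayed under 1 TPM. Among the 11 trophoblast markers tested, 3 were called higher and 1 lower in Setdb1-KO against control cells. In the second table at dox0 the sums were 92.5 to 222.2 TPM without Setdb1, against 66.1 to 134.8 TPM with it, ranges that overlapped. There 6 of 11 were called higher in QKO dox0 against control dox0 cells (Krt8, Plac1, Krt18, Ascl2, Hand1 and Krt7), with sums of 222.2 and 172.1 TPM in QKO dox0 libraries against 111.4 and 84.9 TPM in control dox0 libraries, and 1 of 11 was in Setdb1-KO dox0 cells. In QKO dox0 cells Esx1 had a log2 fold change of -0.41 and was not called. Cdx2, Elf5, Tfap2a, Tpbpa and Prl3d1 stayed under 1 TPM in every library of the second table. The part of the trophoblast markers in the level of the p53 targets was not tested in either table. In the first table the 20 primitive endoderm markers summed to 596 to 1733 TPM without Setdb1 and 619.7 to 2827 TPM with it.

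Loss of G9a or of Suv39h1/2 alone gave no call among the members. In G9a-KO against control cells 0 of 10 were called higher by limma, against 5.52% of all genes, with 5 at adjusted p alone (background 16.9%) and 5 at an unadjusted p below 0.05. In Suv39h1/2-DKO against control cells 0 of 10 were called, against 0.137% of all genes, with 1 at adjusted p alone (background 0.981%) and 2 at an unadjusted p below 0.05. The member that passed at adjusted p alone was Btg2, with 19.1 and 19.98 TPM in Suv39h1/2-DKO cells against 12.5 and 12.6 TPM in control cells (log2 fold change 0.60, SE 0.11, adjusted p = 0.00968). In G9a;Suv39h1/2-TKO against control cells 0 of 10 were called higher, against 4.65%, with 4 at adjusted p alone (background 14.4%) and 7 at an unadjusted p below 0.05. Trp53inp1 had the largest change there, with 58.6 and 87.9 TPM in G9a;Suv39h1/2-TKO cells against 33.9 and 43.6 TPM in control cells (log2 fold change 0.89, SE 0.27, adjusted p = 0.0237). Leaving out control replicate 2, or replicate 1 of the knockout, gave 1 call in each of the G9a-KO and G9a;Suv39h1/2-TKO comparisons. In the second table at dox0, limma called 0 of 10 in G9a-KO (background 3.07%, 3 at an unadjusted p below 0.05), 0 in Suv39h1/2-DKO (background 0.239%, 0 at an unadjusted p below 0.05) and 0 in G9a;Suv39h1/2-TKO (background 2.99%, 3 at an unadjusted p below 0.05), each against control.

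Where Setdb1 was missing, further loss of G9a was compared between lines. G9a;Setdb1-DKO against Setdb1-KO cells gave 1 call, Trp53inp1, against a background of 6.35%, with 7 members higher at adjusted p alone (background 21%). Trp53inp1 had 185 and 315 TPM in G9a;Setdb1-DKO cells, against 86.9 and 138 TPM in Setdb1-KO cells (log2 fold change 1.13, SE 0.27, adjusted p = 0.00477). The call rested on single libraries: without G9a;Setdb1-DKO replicate 2 or Setdb1-KO replicate 1 no member was called, and without G9a;Setdb1-DKO replicate 1 or Setdb1-KO replicate 2 it was 2. QKO against Suv39h1/2;Setdb1-TKO cells also gave 1 call, Trp53inp1, against a background of 5.72% (log2 fold change 1.17, SE 0.27, adjusted p = 0.00394), and none without QKO replicate 2. Further loss of Suv39h1/2, in QKO against G9a;Setdb1-DKO cells, gave 0 calls by limma against a background of 1.46%, with 2 members at an unadjusted p below 0.05. Of these, Btg2 passed at adjusted p alone, as did 9.81% of all genes (log2 fold change 0.56, SE 0.11, adjusted p = 0.00264).

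Whether Setdb1 loss acted differently with and without G9a was tested as an interaction in the first table. No member was called, with 1 at an unadjusted p below 0.05 where Suv39h1/2 were present and 2 where they were missing, and the background of genes called higher was 2.39% and 2.65%. At adjusted p alone, Btg2 and Cdkn1a had a larger change with Setdb1 loss in the line without G9a when Suv39h1/2 were also missing, as had 7.19% of all genes. The difference of log2 fold changes was 0.51 for Btg2 (SE 0.16, adjusted p = 0.0421) and 0.60 for Cdkn1a (SE 0.17, adjusted p = 0.0294). With Suv39h1/2 present no member passed at adjusted p alone (background 6.56%), and the difference was 0.19 for Btg2 (adjusted p = 0.494) and 0.54 for Cdkn1a (adjusted p = 0.058). These results rested on single libraries and on the fit. With 1 library left out the adjusted p was 0.0542 to 0.151 for Btg2, above 0.05 in 8 of 8 such fits, and 0.0195 to 0.142 for Cdkn1a. With the replicate number as a block it was 0.0274 for Btg2 and 0.0110 for Cdkn1a, and Trp53inp1 passed as well (0.62, adjusted p = 0.0339). With a block within each line, added after seeing the data, it was 0.0411, 0.0103 and 0.0196 in that order. With Suv39h1/2 present, the replicate block put Cdkn1a at an adjusted p of 0.0239 and Phlda3 at 0.0173 (difference 0.57). The block within each line put them at 0.0202 and 0.0066, and no difference reached the fold limit.

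Set against control cells, the counts were 5 of 10 in Suv39h1/2;Setdb1-TKO (background 4.74%), 7 in G9a;Setdb1-DKO (background 9.58%), 9 in QKO (background 10.1%) and 10 in Dux-KO QKO (background 16.8%). The median log2 fold change of the members was 1.09, 1.43, 1.48 and 2.20 in that order. These comparisons share the 2 control libraries. The 1 member not called in QKO was Zmat3, with 42.7 and 42.6 TPM in QKO cells against 27.01 and 30.1 TPM in control cells (log2 fold change 0.57, SE 0.20, adjusted p = 0.0291). The calls of Mdm2, Bbc3 and Sesn2 in QKO lay close to the fold limit, with log2 fold changes of 1.03, 1.01 and 1.02, and the count was 7 to 9 when single libraries were left out. In the second table at dox0 the counts against control were 1 in Suv39h1/2;Setdb1-TKO (background 1.15%), 7 in G9a;Setdb1-DKO (background 7.35%) and 6 in QKO (background 6.59%). Without the libraries of high Snhg level, 1 control and 1 G9a;Setdb1-DKO library were left at dox0, and counts are not given for those fits.

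The members were also high in Dux-KO QKO cells, which lacked Dux. In the first table, TPM summed over the 10 members were 2228 and 2268 in Dux-KO QKO cells. They were 838 to 1577 in the other libraries without Setdb1 and 463.5 to 684.5 in libraries that kept it. In the second table, where every cell lacked endogenous Dux, the sums at dox0 were 589.5 and 533.5 TPM in control libraries. They were 1195 and 1235 TPM in QKO dox0 libraries. All 10 members were called higher in Dux-KO QKO against control cells, and the calls stood at 10 when each library was left out in turn. Cdkn1a had 312 and 317 TPM in Dux-KO QKO cells, against 178 and 162 TPM in QKO cells (log2 fold change 0.89, SE 0.12, adjusted p = 5.63e-05). Phlda3 had 194 and 198 TPM in Dux-KO QKO cells, against 113 and 86.5 TPM in QKO cells (log2 fold change 0.98, SE 0.21, adjusted p = 0.00188). Both genes lay above the QKO range in both Dux-KO QKO libraries. Bbc3 had 72.1 and 71.9 TPM in Dux-KO QKO cells, against 39.4 and 23.5 TPM in QKO cells (log2 fold change 1.21, SE 0.22, adjusted p = 0.000627), and was the 1 member called in that comparison.

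Of the members not called there, Trp53inp1 had 319 and 334 TPM in Dux-KO QKO cells, against 260.0 and 333 TPM in QKO cells, ranges that overlapped (log2 fold change 0.15, adjusted p = 0.691). Plk2 had 201 and 207 TPM in Dux-KO QKO cells, against 106 and 112 TPM in QKO cells (log2 fold change 0.90). The background of genes called higher was 4.71%. At adjusted p alone 7 of 10 members were higher, against 34.5% of all genes, and 9 of 10 did not overlap, against 56.4% of all genes. The members' median was 0.66, against 0.22 over all genes. With median ratio scaling these medians were 0.45 and 0.04, 9 of 10 members were positive, and the share of higher among all genes called was 54.5% against 72.1% without it. The count of calls was 2 without QKO replicate 1 and 0 without QKO replicate 2. Dux-KO QKO was of another line, 3S1Gx, and expressed more genes than any other group of the table, 13235 and 13274 at 1 TPM or more. Of 18 primitive endoderm markers tested, 14 were called higher in Dux-KO QKO against QKO cells, with summed levels of 2391 and 2495 TPM in Dux-KO QKO libraries, and of 11 trophoblast markers 5 were called higher, with sums of 169.8 and 170.9 TPM. Their part in the levels of the p53 targets was not tested. Of 26 genes of the 2-cell embryo, 21 were called lower in Dux-KO QKO against QKO cells.

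Doxycycline, which induced the Dux transgene to group means of 29.2 to 65.3 TPM against 0.786 to 3.62 TPM at dox0, was compared with dox0 in 8 combinations of methyltransferase loss, and no member was called higher in any. Of 80 log2 fold changes 71 were negative and 9 positive, limma called 0 higher (0 at an unadjusted p below 0.05) and 1 lower. The background of genes called higher was 0.391% in QKO, 0.76% in G9a;Setdb1-DKO, 0.253% in Suv39h1/2;Setdb1-TKO, 0.174% in Setdb1-KO, 0.499% in G9a;Suv39h1/2-TKO, 0.955% in G9a-KO, 0.434% in Suv39h1/2-DKO and 0.188% in control cells. Trp53inp1, Cdkn1a, Mdm2, Ccng1, Phlda3, Zmat3 and Bbc3 were negative in all 8 comparisons and Btg2, Plk2 and Sesn2 in 5. The medians of the members ran from -0.39 in QKO to -0.11 in Setdb1-KO, beside all-gene medians of -0.21 and -0.05 in those cells. With median ratio scaling 6 to 8 members were negative per comparison, against 7 to 10 without it. In QKO cells 10 of 10 members lay lower with doxycycline without overlap, as did 49.2% of all genes.

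The single call was Bbc3 in G9a;Setdb1-DKO cells, with 17.1 and 19.1 TPM with doxycycline, against 53.7 and 38.8 TPM at dox0 (log2 fold change -1.29, SE 0.26, adjusted p = 0.0108). The background of genes called lower there was 0.297%. Phlda3 had 71.04 and 62.3 TPM with doxycycline in those cells, against 161 and 104 TPM at dox0 (log2 fold change -0.95, SE 0.21, adjusted p = 0.0175). For both genes the libraries with doxycycline lay below those without it. The count was 0 without replicate 1 at dox0 or replicate 2 with doxycycline, 2 without either of the other libraries, and 0 with median ratio scaling, where the change of Bbc3 was -1.08. Cdkn1a in QKO cells had 103 and 119.9 TPM with doxycycline, against 150.5 and 154 TPM at dox0 (log2 fold change -0.45, SE 0.16, adjusted p = 0.18). Tests of the difference in response between cells without and with Setdb1, within a line and at the same dox label, gave 0 calls among the members and a background of 0% by limma, with at most 2 members at an unadjusted p below 0.05.

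**Figure D3:**
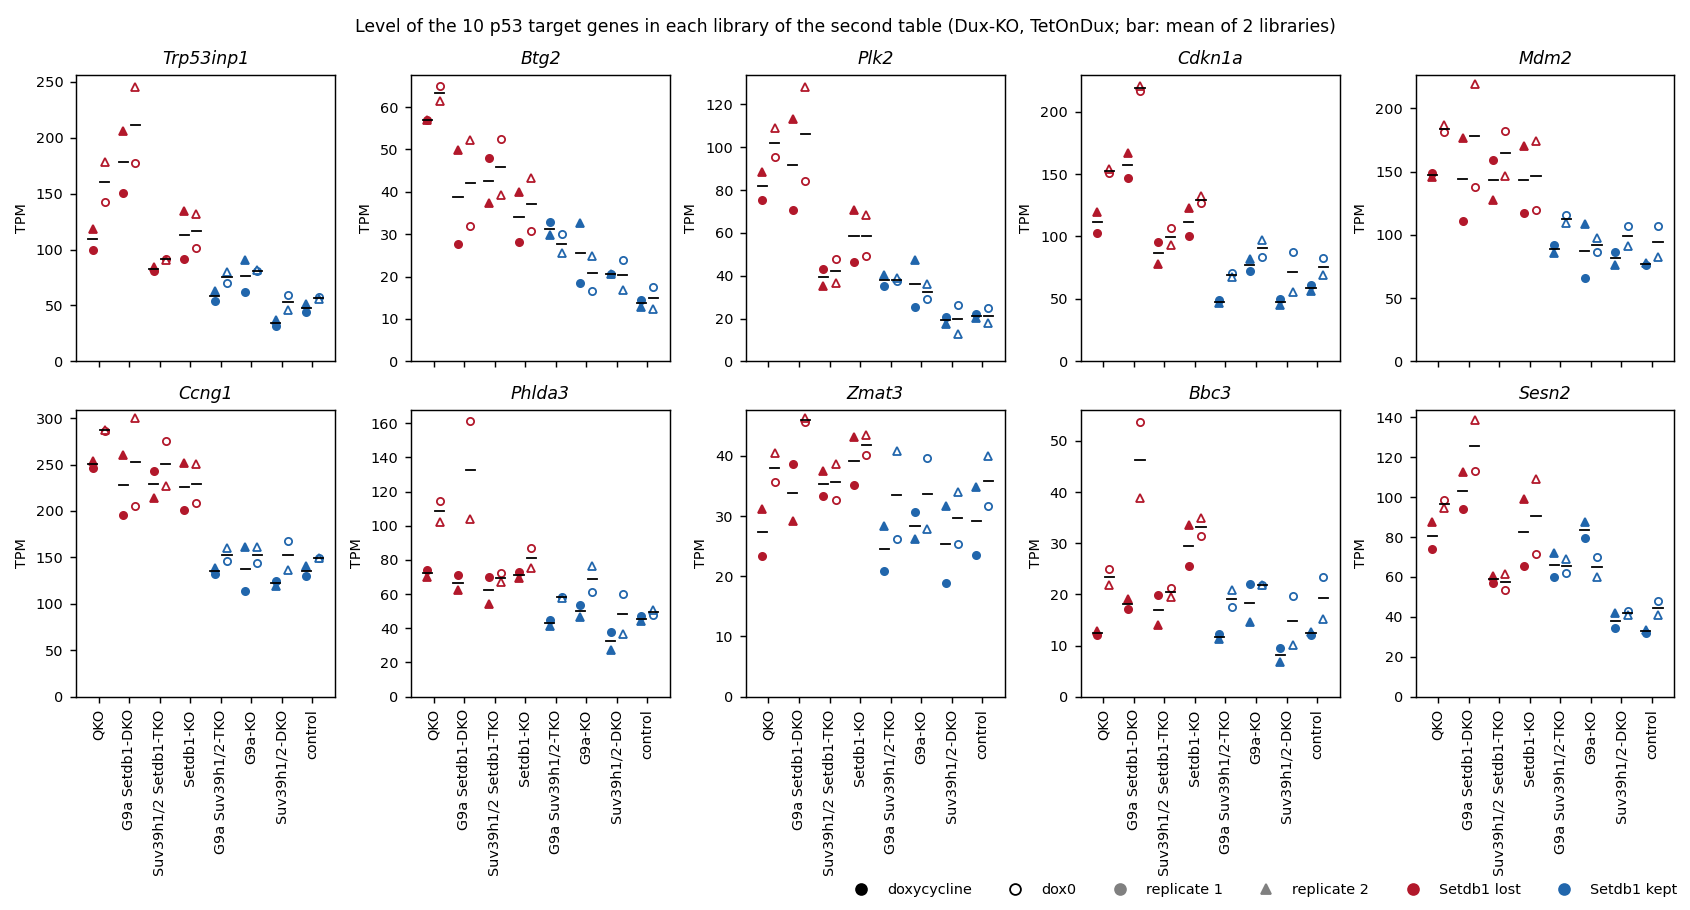
TPM of each p53 target gene in the 32 libraries of the second table, one panel per gene, with doxycycline (filled) to the left of dox0 (open) in each combination of losses. Circles are replicate 1 and triangles replicate 2. Bbc3 in G9a;Setdb1-DKO cells, the single call with doxycycline, lies at 17.1 and 19.1 TPM with doxycycline against 53.7 and 38.8 TPM at dox0.

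**Figure D4:**
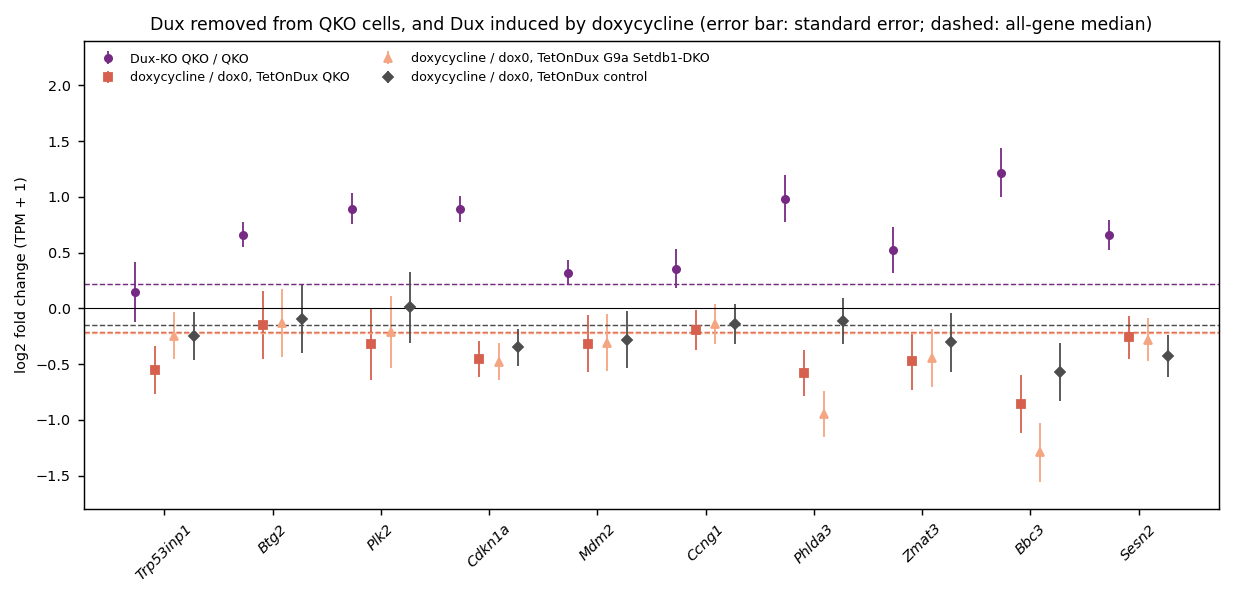
Log2 fold changes of the 10 members for Dux-KO QKO against QKO, and for doxycycline against dox0 in the QKO, G9a;Setdb1-DKO and control cells with the Tet-on-Dux transgene. Bars are standard errors and dashed lines the medians of all genes tested. All 10 estimates are positive for Dux-KO QKO. With doxycycline all 10 are negative in QKO and in G9a;Setdb1-DKO cells, and 9 are in control cells.

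The RNA of p53 itself was not called higher in QKO cells. Trp53 had 447 and 350.0 TPM in QKO cells, against 511 and 509 TPM in control cells, a log2 fold change of -0.37 that stayed below the fold limit (adjusted p = 0.0255). It had 671 and 637 TPM in Dux-KO QKO cells, against the same QKO values, a log2 fold change of 0.72. Both QKO libraries lay below the control range and both Dux-KO QKO libraries above it. In the second table the estimate had the other sign, with 576 and 638 TPM in QKO dox0 cells, against 430.4 and 568 TPM in control dox0 cells (log2 fold change 0.29, adjusted p = 0.468), without overlap. Protein level and activity of p53 are not measured in these tables. Of 22 genes for p53 and its regulators tested, 2 were called higher and 1 lower in QKO against control cells. Mdm4, a relative of Mdm2 that inhibits p53, had 81.5 and 82.5 TPM in QKO cells, against 34.7 and 34.98 TPM in control cells (log2 fold change 1.21). Trp73, which encodes the p53 relative p73, had 3.41 and 4.48 TPM in QKO cells, against 0.763 and 0.723 TPM in control cells (log2 fold change 1.5). The gene called lower was Ehmt2, the deleted G9a.

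A further 39 genes described as p53 targets were tested. Because they and the 10 members were chosen with earlier results known, their counts are not set against those of the members. In QKO against control cells 10 of 39 were called higher, against 10.1% of all genes, and 3 lower, with a median of 0.31. In Setdb1-KO cells it was 5 higher and 1 lower (median 0.32), and in Dux-KO QKO cells 18 higher and 2 lower (median 0.90), each against control. With median ratio scaling the counts were 10 and 3, 5 and 0, and 17 and 2. The largest increase in QKO was that of Eda2r, a death-domain receptor, with 62.7 and 80.3 TPM in QKO cells, against 12.04 and 14.3 TPM in control cells (log2 fold change 2.35). Ephx1, an epoxide hydrolase, had 28.1 and 27.5 TPM in QKO cells, against 4.59 and 5.70 TPM in control cells (log2 fold change 2.24). Rprm, which encodes the arrest protein Reprimo, and Dcxr, a xylulose reductase, followed with log2 fold changes of 1.66 and 1.53. The 3 that fell were Trp53i13 (-1.6), Trp53i11 (-1.51) and the secreted stress factor Gdf15 (-1.28). The 2 most abundant genes of the list, Rps27l and the cell death gene Bax, were not called, with log2 fold changes of 0.72 and 0.16. In the second table at dox0, 5 of 38 were called higher and 4 lower in QKO against control cells.

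Family relatives of the members showed no common direction. Of 24 tested, 3 were called higher, near the 10.1% of all genes, and 2 lower in QKO against control cells, with a median of 0.00. Btg1, the closest relative of Btg2, and Pmaip1, the BH3-only gene for NOXA, had log2 fold changes of 1.34 and 1.32, while Phlda2 and Bik, another BH3-only gene, had -2.57 and -1.09. The third gene called higher was Mdm4. Of 24 genes of the G2 and M phases, which p53 lowers through p21, limma called 0 higher (1 at an unadjusted p below 0.05) and 2 lower in QKO against control cells, Cdc25b (-1.41) and Nek2 (-1.03). Their median was -0.19, against -0.05 over all genes. Btg2 and Plk2 are also immediate early genes, which growth factors and stress switch on. Of 19 such genes 4 were called higher and 2 lower in QKO cells, led by Atf3 (1.94) and Jun (1.62) and by Ier3 (-1.74) and Junb (-1.14), with a median of -0.20.

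**Figure D5:**
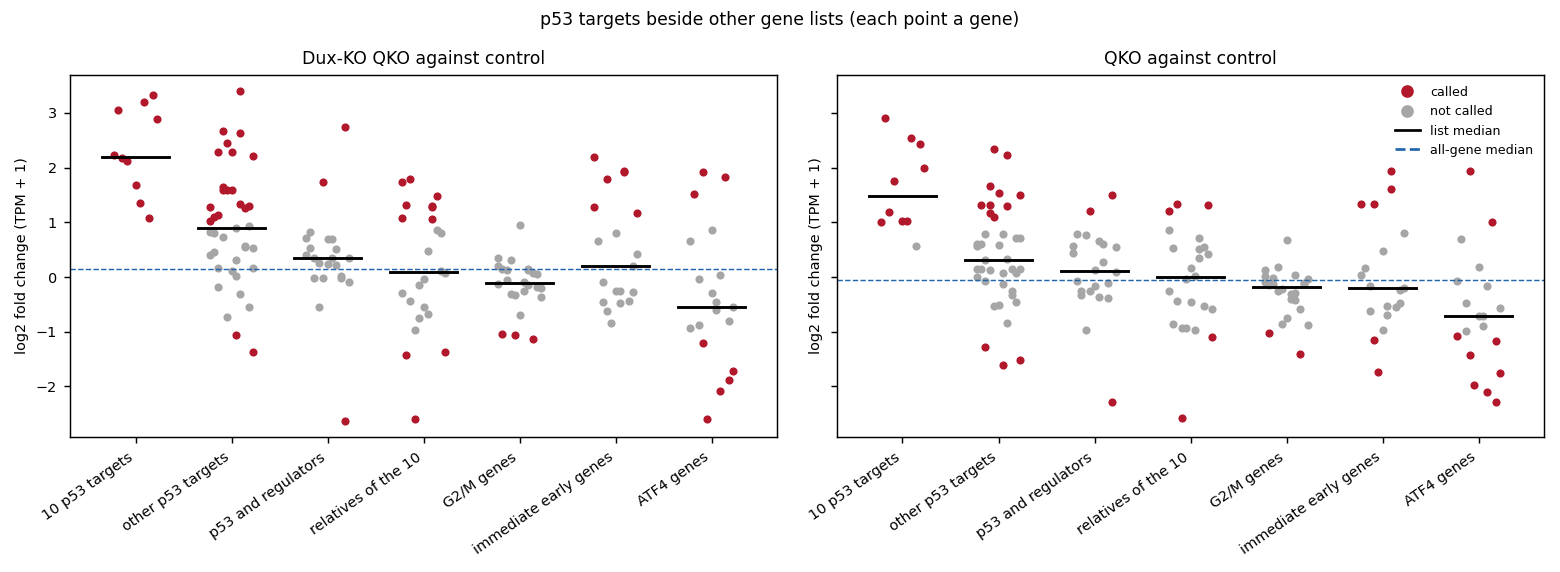
Log2 fold changes of the 10 members and of 6 other gene lists in Dux-KO QKO against control (left) and in QKO against control (right). Each point is a gene, red where called and grey where not. Black lines are list medians and blue dashed lines the medians of all genes tested. The members' medians are 2.20 in Dux-KO QKO and 1.48 in QKO, and the 39 further p53 targets have medians of 0.90 and 0.31. Members and lists were chosen with earlier results known, so their medians are not ranked.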

How the data were processed

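RNA-seq libraries (TruSeq stranded mRNA, paired-end reads) numbered 50, of mouse embryonic stem cells, per the labels. The TPM values were deposited by the authors as 2 tables of 18 and 32 libraries, normalised separately and never compared with each other library by library. Per the submitters' processing notes RSEM 1.3.1, SAMtools 1.9, STAR 2.7.10b and Bowtie2 2.3.4.1 were used with mm10. The sources used here do not give strand use in counting or the gene annotation.

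The 10 members and the gene lists were chosen with earlier results of these data known. A gene was kept if 2 or more libraries of its table had 1 TPM or more, 13862 of 24412 and 13819 of 24413. log2(TPM+1) was fitted with limma 3.58.1 (R 4.3.3), all groups of a table in one model with a mean-variance trend, which left 9 and 16 residual degrees of freedom. Benjamini-Hochberg adjustment ran over all genes of a comparison. Named genes were all members and, of each other list, at most 4 called genes per direction with the largest change in QKO against control and the 2 most abundant uncalled ones. Figures were drawn with matplotlib 3.10.9. The fits were tested on simulated data with independent noise in each library. At a log2 fold change of 1.5, QKO against control recovered 60 of 60 changed genes, with 1 false call among 13662 unchanged genes. Doxycycline in control cells recovered 51 of 55, with 3 false calls among 13619. The simulation held no correlation between replicate numbers and no libraries of high Snhg level, so it does not test these features of the data.

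Replicate numbers are shared by all groups. Deviations of same-numbered libraries were correlated above 0.1 in 4 of 4 pairs of groups of one line with and without Setdb1 in the first table (r 0.202 to 0.476), in 2 of 4 such pairs at dox0 in the second (-0.647 to 0.462), and in 8 of 8 pairs of doxycycline and dox0 groups of the same cells (0.177 to 0.748). Main fits had no block. The replicate number was a block in an alternative fit of every comparison, and a block within each line in one added for the Setdb1 comparisons of the first table and for doxycycline. Other alternatives were a pseudocount of 0.1, no filter, median ratio scaling, a term for the Snhg level, and single libraries left out.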

Additional observations from a re-analysis of the deposited data

Results flagged for a closer look

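The log2 fold change of Btg2 and Cdkn1a with Setdb1 loss was larger in the line without G9a and Suv39h1/2 than in the line without Suv39h1/2 alone, by a test of the difference itself at adjusted p alone. For Btg2 the difference of log2 fold changes was 0.51 (SE 0.16, adjusted p = 0.0421), with TPM of 79.98 and 75.6 in QKO against 21.99 and 22.6 in G9a;Suv39h1/2-TKO cells, and 50.2 and 44.97 in Suv39h1/2;Setdb1-TKO against 19.1 and 19.98 in Suv39h1/2-DKO cells. For Cdkn1a the difference was 0.60 (SE 0.17, adjusted p = 0.0294), with TPM of 178 and 162 in QKO against 60.8 and 55.8 in G9a;Suv39h1/2-TKO cells, and 117 and 95.8 in Suv39h1/2;Setdb1-TKO against 60.2 and 50.4 in Suv39h1/2-DKO cells. Leaving out single libraries moved the adjusted p to 0.0542 to 0.151 for Btg2 and to 0.0195 to 0.142 for Cdkn1a. With the replicate number as a block Trp53inp1 passed as well (0.62, adjusted p = 0.0339). These differences were under the fold limit of 1 and run between 2 lines, so that gene and line cannot be told apart.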

How the results depend on the processing

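No member changed its call with a pseudocount of 0.1, with the replicate block or, for the 5 comparisons where they could be, without the Dux-KO QKO libraries, and no called value changed sign. At adjusted p alone, without the fold limit, more members were counted, and brackets hold the share of all genes where given. Higher against control in the first table were 8 in Setdb1-KO (12.5%), 1 in Suv39h1/2-DKO (0.981%), 5 in G9a-KO (16.9%), 4 in G9a;Suv39h1/2-TKO (14.4%) and 9 in Suv39h1/2;Setdb1-TKO. At dox0 in the second table they were 7 in Setdb1-KO, 1 in G9a-KO, 4 in Suv39h1/2;Setdb1-TKO and 2 in G9a;Suv39h1/2-TKO. For Setdb1 loss on Suv39h1/2-DKO, G9a-KO and G9a;Suv39h1/2-TKO they were 8, 9 and 9 in the first table, and 4 on Suv39h1/2-DKO and 9 on G9a-KO in the second. They were 7 in Dux-KO QKO against QKO (34.5%), 7 in G9a;Setdb1-DKO against Setdb1-KO (21%) and 1 in QKO against G9a;Setdb1-DKO (9.81%). They were 5 in QKO against Suv39h1/2;Setdb1-TKO, 2 for the interaction without Suv39h1/2 (7.19%) and 2 lower for doxycycline in G9a;Setdb1-DKO. The shares for Setdb1 loss within a line are given above as a range. Counts without a share cannot be read as particular to the members. Against control at dox0, Suv39h1/2;Setdb1-TKO had 3 calls with a term for the Snhg level and 2 with median ratio scaling, and G9a;Suv39h1/2-TKO had 2 with that term. The doxycycline call in G9a;Setdb1-DKO became 0 with median ratio scaling. Without the libraries of high Snhg level, which left 1 library with doxycycline against 1 at dox0, the log2 fold change of Bbc3 there was -1.60. Without a filter on low values, Setdb1 loss on Suv39h1/2-DKO at dox0 gave 0 calls. The cause of these shifts was not tested.

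With 1 library left out, counts against control ranged from 4 to 5 in Setdb1-KO, 0 to 1 in G9a-KO, 5 to 6 in Suv39h1/2;Setdb1-TKO, 0 to 1 in G9a;Suv39h1/2-TKO and 7 to 9 in QKO in the first table, and from 0 to 4 in Setdb1-KO, 6 to 9 in G9a;Setdb1-DKO and 4 to 7 in QKO in the second. They ranged from 0 to 2 in Dux-KO QKO against QKO and in G9a;Setdb1-DKO against Setdb1-KO, and from 0 to 1 in QKO against Suv39h1/2;Setdb1-TKO. For Setdb1 loss on G9a-KO they ran from 5 to 6 and on G9a;Suv39h1/2-TKO from 5 to 7 in the first table, and from 0 to 1 on Suv39h1/2-DKO, 4 to 6 on G9a-KO and 1 to 3 on G9a;Suv39h1/2-TKO in the second. The doxycycline call ran from 0 to 2. The left-out group's remaining library was assumed to vary like the other groups. Pairing by replicate number, as one block or within each line, changed no member's call, and for Bbc3 with doxycycline in G9a;Setdb1-DKO the replicate block gave -1.29 with an adjusted p of 0.00429, or 0.00123 with the block within each line, added after seeing the data. Over all genes the number called moved by more than 1.5-fold in 20 of 35 comparisons with the pseudocount of 0.1 (up to 2.57-fold) and in 8 of 8 doxycycline comparisons with the block within each line. Median ratio scaling moved the all-gene median by more than 0.1 in 13 of 35 comparisons, at most by 0.197. Groups of 2 libraries and an unknown depth limit the precision of all values.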

Other observations

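Bbc3 and Sesn2 are also known as genes of the ATF4 stress response, so 19 ATF4 targets were described beside them. In QKO against control cells 7 of the 19 were called lower and 2 higher, with a median log2 fold change of -0.71. Of all genes 10.1% were called higher there. The share called lower is not given, so counts of genes called lower describe this list and the lists above only. Those lowest were Chac1, a glutathione-degrading enzyme (-2.28), and the serine and folate enzymes Phgdh (-2.11), Mthfd2 (-1.98) and Shmt2 (-1.76), and those higher were Atf3 (1.94) and Ddit4 (1.0). Phgdh had 27.9 and 23.4 TPM in QKO cells, against 109.5 and 117 TPM in control cells, without overlap. In Dux-KO QKO against control cells 5 were called lower and 3 higher. Of 24 pluripotency genes 5 were called higher and 0 lower in QKO against control cells by limma (5 lower at an unadjusted p below 0.05), and of 10 fibroblast genes tested 2 were called higher and 1 lower.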
